A study of Homo sapiens with 13 samples.

Results

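Chromatin accessibility at the collagen genes was compared between human cells in G1 and in mitosis (M-phase). The members were the peaks of a genome-wide ATAC-seq table, on the hg19 build, that overlapped the body of a protein-coding collagen gene or its 5000 bp flanks, with a collagen gene taken as any gene named COL, a number, A and a number. This rule gave 345 of the 129347 peaks, and they lay at 40 of 44 collagen genes. No peak lay at COL6A6, COL9A1, COL11A2 or COL17A1. A peak over the start of any transcript of a collagen gene was called a TSS peak (transcription start site; 28 peaks at 25 genes), and a peak inside a gene body over no annotated start was called intragenic (293 peaks at 38 genes). Another 17 peaks lay only in a flank, and 7 covered only the start of another gene.

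ATAC-seq reads come from the sites where the transposase Tn5 can insert into DNA, so a count in a peak measures how accessible that stretch of chromatin is. All libraries came from T98G, an established human glioblastoma line, with 3 libraries per phase. G1 cells were starved of serum for 72 h. M-phase cells were starved for 48 h, released for 36 h into medium with 20% serum and 0.2 µg/mL nocodazole, a drug that blocks spindle assembly, and shaken off the dish. G1 samples were read on a HiSeq, and M-phase samples are listed on a HiSeq and, under the same replicate numbers, on a NextSeq. How these samples enter the 3 M-phase columns is not given, and each column is called a library here. Phase, serum, nocodazole and platform cannot be told apart in any comparison here. No label ties the libraries to separate cultures, and p-values measure the spread between these libraries. Counts summed over all peaks ranged from 4191845 to 5092426 in G1 and from 5475345 to 6000423 in M-phase, after the authors had scaled all libraries to the smallest. Before scaling, the steps between the values put the reads in peaks at 4334533 to 5365240 in G1 and at 12470388 to 14202831 in M-phase, which makes the M-phase values the more finely measured. TSS peaks were present at VIM, CD44 and FN1, genes of mesenchymal glioma cells, and also at OLIG2 and EPCAM, while the table held none at GFAP, SOX10, PTPRC, CD3E, CDH1, PECAM1 or CDH5.

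Collagens are extracellular proteins whose chains wind around each other into a helix. Fibrillar collagens such as types I, III and V form the fibres of connective tissue, type IV forms the network of basement membranes, type VI forms beaded filaments, and the FACIT collagens decorate fibre surfaces. In glioblastoma, collagens are best known from the walls of the tumour vessels and from cells with a mesenchymal character. Chains are hydroxylated, folded and joined in the endoplasmic reticulum before they are secreted, so collagen output depends on many other genes as well.

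The windows of sequence around which the largest changes lay are shown first, read from the hg19 sequence. They are the 200 bases just before the start of the 2 genes whose TSS peaks rose most, on the strand of the gene. Capitals mark a GC box, with the letters GGGCGG, a box of the letters CCAAT, a site for the factor AP-1, with the letters TGANTCA, or the core promoter element called TATA box, searched for as TATAAA. Both strands were searched.
COL7A1, chr3:48632763-48632962, minus strand: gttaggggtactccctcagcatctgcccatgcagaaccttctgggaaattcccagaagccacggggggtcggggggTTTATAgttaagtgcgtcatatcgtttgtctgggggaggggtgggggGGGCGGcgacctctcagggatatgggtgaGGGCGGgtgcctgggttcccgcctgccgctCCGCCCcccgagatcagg
COL5A1, chr9:137533449-137533648, plus strand: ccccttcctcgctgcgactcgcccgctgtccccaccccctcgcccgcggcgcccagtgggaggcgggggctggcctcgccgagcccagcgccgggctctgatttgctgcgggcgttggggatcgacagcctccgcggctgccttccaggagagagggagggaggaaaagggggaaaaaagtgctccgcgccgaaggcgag
The windows had a GC content of 64% and 72.5%. That of COL7A1 held 3 GC boxes and 1 match to the TATA box letters, and that of COL5A1 held none of the 4 motifs. The TATA match, at bases 77 to 82, reads TTTATA, so it lies on the strand opposite the gene. It is a match of letters, and whether it acts as a core promoter element was not tested. A GC box was in the same window of 26 of 44 collagen genes (59.1%) and of 56.4% of 19881 protein-coding genes. The TATA box letters, at any place and on either strand, were in 6 collagen windows (13.6%, against 7.73%). A CCAAT box was in 11 (25%, against 30.3%) and an AP-1 site in none (against 3.72%).

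Next are the middle 200 bases, on the plus strand, of 4 of the 5 intragenic peaks that fell most among those called, with no overlap between phases and with a mean in 1 phase of 30 or more. In the annotation, 3 of these peaks are intronic and the COL21A1 peak around 55965996 also reaches a coding exon. The COL4A3 window also lies within MFF-DT, a non-coding gene on the other strand. Capitals mark an AP-1 site (TGANTCA), a TEAD site (GGAATG), a RUNX site (TGTGGTT), a forkhead site (TGTTTAC) or a CEBP site (TTGCNNAA), again on both strands.
COL21A1, chr6:56239870-56240069: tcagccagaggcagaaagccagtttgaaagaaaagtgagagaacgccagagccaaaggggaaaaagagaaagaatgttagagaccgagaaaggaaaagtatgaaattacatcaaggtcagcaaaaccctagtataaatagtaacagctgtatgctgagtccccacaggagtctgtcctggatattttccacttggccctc
COL21A1, chr6:55965996-55966195: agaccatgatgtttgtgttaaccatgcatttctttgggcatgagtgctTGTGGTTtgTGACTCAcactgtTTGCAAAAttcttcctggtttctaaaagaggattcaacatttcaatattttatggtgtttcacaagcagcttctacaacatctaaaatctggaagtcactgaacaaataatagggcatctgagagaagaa
COL4A3, chr2:228092881-228093080: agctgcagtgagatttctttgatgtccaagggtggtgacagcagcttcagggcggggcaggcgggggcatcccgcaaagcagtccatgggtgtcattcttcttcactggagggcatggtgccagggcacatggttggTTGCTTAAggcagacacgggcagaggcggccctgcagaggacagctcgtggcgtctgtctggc
COL3A1, chr2:189843371-189843570: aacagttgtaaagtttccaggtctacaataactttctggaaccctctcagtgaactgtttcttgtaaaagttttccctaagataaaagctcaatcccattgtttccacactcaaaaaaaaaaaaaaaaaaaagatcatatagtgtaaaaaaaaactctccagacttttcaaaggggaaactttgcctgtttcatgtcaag
The COL21A1 window at 55965996 held a RUNX, an AP-1 and a CEBP match within 30 bases, at bases 49 to 55, 58 to 64 and 71 to 78, and the COL4A3 window held a CEBP match at bases 138 to 145. The other windows held none of these letters. Among the 26 collagen intragenic peaks called lower in M-phase, 5 held a CEBP match in their middle 200 bases (19.2%), 5 a TEAD match (19.2%), and 2 each an AP-1, RUNX or forkhead match (7.69%). Of the 3895 intragenic peaks of all protein-coding genes called lower, 14.4%, 19.2%, 19.9%, 11.6% and 6.65% held the respective letters, and of all 25710 tested intragenic peaks 8.37%, 13.7%, 16.9%, 6.17% and 3.61%.

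To test changes, limma was fitted to log2(scaled count + 8) of the 73121 peaks with enough counts, with Benjamini-Hochberg adjustment over all of them. A peak was called at an adjusted p under 0.05, and every change below is the log2 change from G1 to M-phase on this scale, which understates changes of low peaks. In all, 14.3% of the tested peaks were called higher in M-phase and 13.1% lower. Of the collagen peaks, 215 were tested, of which 22 were higher and 29 lower. A lower count may come from fewer cells with the site open or from less opening per cell, and bulk libraries cannot tell these apart.

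Most collagen peaks of either class were not called, and the calls were more often higher at TSS peaks and more often lower at intragenic peaks. Among TSS peaks, 25 of 28 passed the filter, and 10 were higher and 2 lower in M-phase. Over all protein-coding genes, 47.1% of 13131 tested TSS peaks were higher and 5.29% lower, so the collagen share of 40% higher and 8% lower lay near the background. The median change of the tested collagen TSS peaks was 0.44, against 0.45 for all tested TSS peaks. Among intragenic peaks, 173 of 293 passed the filter, and 11 were higher (6.36%) and 26 lower (15.03%). This was again near the background of 7.12% higher and 15.1% lower among 25710 tested intragenic peaks, with a median of -0.13 for the collagen genes and -0.05 for all. With trended loess scaling, which removes a dependence of change on abundance, 3 collagen TSS peaks were higher and 3 lower, against 21.9% and 18% of all TSS peaks. With equal totals in peaks, 5 of 25 collagen TSS peaks were higher and 3 lower, against 32.3% and 16.2% of all TSS peaks. Of 170 collagen intragenic peaks tested there, 1 was higher and 45 lower, against 3.42% and 27.4% of all intragenic peaks.

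**Figure D1:**
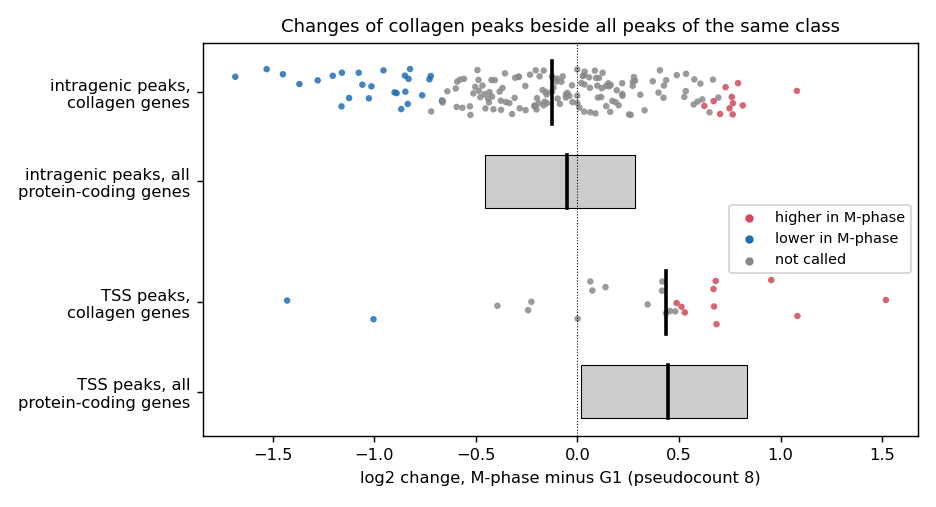
Log2 change from G1 to M-phase (horizontal axis) for tested collagen TSS and intragenic peaks, 1 point per peak with sideways scatter for display only, red where higher and blue where lower at an adjusted p under 0.05. Grey boxes span the quartiles of all tested peaks of the same class in protein-coding genes and black bars are medians, with 0.44 for collagen TSS peaks beside 0.45 for all and -0.13 for collagen intragenic peaks beside -0.05.

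TSS peaks were also divided by whether they lay at the main start of a gene or at another start. At the canonical start of the annotation, 17 of 18 peaks were tested, 9 were higher, none was lower (none at an unadjusted p under 0.05), and the median change was 0.49. At other starts, 8 of 10 were tested, with 1 higher (COL1A1), 2 lower (COL21A1 and COL1A2) and a median of -0.11. The difference between the kinds of start was not tested. The same split was not made over all protein-coding genes, so whether it is particular to collagen genes is not known.

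Type VII collagen, encoded by COL7A1, forms the anchoring fibrils that tie the epidermal basement membrane to the dermis. The COL7A1 TSS peak (chr3:48632452-48633756, over the first coding exon) had scaled counts of 162.1, 154.7 and 143 in the G1 libraries and 401.7, 479.6 and 484.6 in the M-phase libraries. All M-phase libraries lay well above all G1 libraries. Its log2 change of 1.52 ± 0.18 (SE; adjusted p = 3.18e-11, limma) was the largest rise of any collagen peak, and the call held under every alternative tried. At the far end of the gene, a peak over the start of UCN2, the gene for the peptide urocortin 2, rose from 61.8 ± 4.72 to 105 ± 18.8 (mean ± SD, n = 3 each; log2 change 0.68, adjusted p = 0.0127, limma).

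Among fibrillar collagens, the TSS peaks of COL5A1, COL1A1 and COL27A1 were higher, that at an inner start of COL1A2 was lower, and 4 were not called. Type V collagen nucleates and limits the width of type I fibrils. The COL5A1 TSS peak (chr9:137533072-137535681) had 268.4, 261.7 and 278 in G1 and 563.6, 587.6 and 587.5 in M-phase. The libraries of each phase lay close together and far from those of the other, with a change of 1.08 ± 0.16 (SE; adjusted p = 1.08e-07, limma) that held under every alternative. The partner chain COL5A2 had 59.7, 50 and 117 in G1 and 106.7, 96.4 and 97.7 in M-phase at its TSS (chr2:190043509-190044967). The third G1 library was the highest of all 6, and the change of 0.46 was not called (adjusted p = 0.133, limma), although it was without that library (0.79, adjusted p = 0.00331).

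COL1A1 and COL1A2 encode the chains of type I collagen, the main protein of fibrous tissue. The COL1A1 TSS peak (chr17:48276815-48278723) had 389.7, 350.8 and 332 in G1 and 480.7, 564.5 and 512.5 in M-phase. The phases did not overlap, and the change was 0.53 ± 0.16 (SE; adjusted p = 0.00911, limma). This peak ends short of the canonical start and also covers the start of the non-coding gene ENSG00000249406. The COL1A2 TSS peak (chr7:94023278-94025883) had 403.6, 328.9 and 452 in G1 and 497.2, 505.2 and 496.6 in M-phase. All M-phase libraries were above all G1 libraries, but the change of 0.35 was not called (adjusted p = 0.109, limma), and it overlaps the start of ENSG00000285090 as well.

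The direction at both type I genes depended on the scaling. Trended loess scaling gave -0.29 for COL1A1 (adjusted p = 0.0533, limma) and called COL1A2 lower, at -0.48 (adjusted p = 0.000322, limma). Without the third G1 library, COL1A2 was instead called higher, at 0.45 (adjusted p = 0.0133, limma). Without M-phase library 2, COL1A1 kept a change of 0.47 and lost its call (adjusted p = 0.109, limma).

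Other starts at COL1A2 went down. The peak over an inner start (chr7:94053194-94053714, 29.2 kb into the gene) fell from 43.5 ± 18.9 to 16.7 ± 3.01 (mean ± SD, n = 3 each; change -1.005, adjusted p = 0.00337, limma), with no overlap between phases. Upstream of the gene, a peak over the start of ENSG00000285090 alone (chr7:94021199-94021624) fell from 72.6 ± 12.6 to 37.8 ± 10.2, a change of -0.83 (adjusted p = 0.00565, limma).

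COL27A1, a fibrillar collagen of cartilage, had 97.4, 116.4 and 153 in G1 and 182.9, 153.7 and 190.5 in M-phase at its TSS (chr9:116917588-116919284). The highest G1 library nearly met the lowest M-phase library, and the change was 0.51 ± 0.20 (SE; adjusted p = 0.0442, limma). This call was lost under each of TMM, loess and equal-total scaling, with a pseudocount of 1, with no filter, and without any one of 5 of the 6 libraries, with an adjusted p of up to 0.251 in those fits; without G1 library 3 it was kept. COL11A1, which pairs with type V chains, had its stronger TSS peak at an inner start. That peak had 13.9, 14.1 and 33 in G1 and 16.1, 19.4 and 22.1 in M-phase, and the phases overlapped (adjusted p = 0.999, limma). Its weaker TSS peak, 0.46 kb from the gene start (chr1:103573753-103574184), had 6, 18 and 21 in G1 and 22.2, 23.1 and 18.8 in M-phase. The phases overlapped there too, and the change of 0.42 was not called (adjusted p = 0.314, limma).

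Type VI genes encode the chains of the beaded filaments, and all 3 that had a TSS peak were higher there in M-phase. COL6A1 (chr21:47400783-47402620) had 168, 161.7 and 177 in G1 and 283, 359.3 and 368.1 in M-phase. COL6A2 (chr21:47517315-47519241, which also covers the start of COL6A2-DT) had 222.7, 231.3 and 219 in G1 and 323.8, 365.5 and 408.5 in M-phase. COL6A3 (chr2:238320165-238323026) had 220.7, 230.5 and 253 in G1 and 342.7, 396 and 398.9 in M-phase. In each of these genes the lowest M-phase library lay above the highest G1 library.

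The changes were 0.95 ± 0.18 for COL6A1 (SE; adjusted p = 1.51e-05, limma), 0.68 ± 0.17 for COL6A2 (adjusted p = 0.00142) and 0.67 ± 0.17 for COL6A3 (adjusted p = 0.00149). The COL6A1 call held under every alternative, whereas trended loess scaling left COL6A2 at 0.04 and COL6A3 at 0.01, neither called. The genes COL6A5 and COL6A6 of the same family had no TSS peak.

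In the fit over peaks, none of the 3 TSS peaks of the type IV genes was called, though 1 was higher at an unadjusted p under 0.05. Type IV genes lie in head-to-head pairs that share a promoter. COL4A1 and COL4A2, whose chains make up most basement membranes, shared a peak (chr13:110958838-110960865) with 202.8, 200 and 234 in G1 and 280.5, 272.4 and 303.6 in M-phase. The phases did not overlap, and the change was 0.42 ± 0.18 (± SE, adjusted p = 0.0721, limma). It was called without the third G1 library (0.49, adjusted p = 0.0185, limma) and turned to -0.16 with loess scaling. In a fit of TSS signal summed per gene, adjusted over genes, the same counts were called higher (adjusted p = 0.0333, limma).

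COL4A3 and COL4A4, known from the kidney filter, had a peak each on their sides of the shared promoter. The COL4A3 peak (chr2:228029217-228029998) ranged from 26.8 to 35 in G1 and from 25 to 44.5 in M-phase, and the COL4A4 peak (chr2:228028540-228028982) from 19.9 to 36 and from 12.4 to 28.4. The phases overlapped at both (adjusted p = 0.758 and 0.332, limma). COL4A5 and COL4A6 on the X chromosome had no TSS peak.

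COL8A1, a short-chain network collagen of vessel walls and the eye, had 114.3, 119.5 and 156 in G1 and 208, 243.9 and 187.2 in M-phase at its TSS (chr3:99355901-99357798). The phases did not overlap, and the change was 0.68 ± 0.19 (SE; adjusted p = 0.0041, limma), but it was not called without M-phase library 2 (0.59, adjusted p = 0.0799), with loess scaling (0.27) or with equal totals (0.35). COL18A1, a multiplexin that carries the antiangiogenic fragment endostatin, had 234.6, 225 and 193 in G1 and 303.6, 320.6 and 298.3 in M-phase (chr21:46824362-46826070, which also covers the start of ENSG00000273796). The phases did not overlap, and the change of 0.49 ± 0.18 was called (adjusted p = 0.0293, limma); it turned to -0.11 with loess scaling, and its call was lost with TMM (0.35) and equal totals (0.14) and without each of the M-phase libraries, where the adjusted p ranged from 0.0865 to 0.155.

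Of the 5 TSS peaks of FACIT genes, 1 was higher and 1 lower. COL12A1, found in dense connective tissue, had 198.8, 185.2 and 181 in G1 and 285.1, 335 and 294.5 in M-phase (chr6:75914102-75916056), with a change of 0.67 ± 0.18 (SE; adjusted p = 0.0023, limma). All M-phase libraries exceeded all G1 libraries; loess scaling left a change of 0.10, equal totals left 0.33, and without M-phase library 2 the adjusted p was 0.0515. COL16A1 ranged from 56 to 95.4 in G1 and from 65.1 to 86.9 in M-phase, and COL19A1, whose peak is shared with the start of LMBRD1, from 49.7 to 96 and from 49.6 to 63.9; neither was called (adjusted p = 0.879 and 0.492, limma).

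COL21A1 was the exception among these starts. Its only TSS peak lay at an inner start 302.7 kb from the gene start (chr6:55955973-55956501), with 43.7, 53.9 and 68 in G1 and 10.3, 9.5 and 30.8 in M-phase. All M-phase libraries were below all G1 libraries, and the change was -1.43 ± 0.28 (SE; adjusted p = 2.7e-05, limma). It kept its call under every alternative in which it passed the filter.

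TSS peaks of transmembrane collagens and of the remaining genes were low and none was called. COL13A1 had 42.7, 43.8 and 47 in G1 and 57.7, 69.2 and 62.6 in M-phase, with no overlap and a change of 0.44 (adjusted p = 0.174, limma). COL23A1 ranged from 26 to 31.8 in G1 and from 23.5 to 43.8 in M-phase (adjusted p = 0.881), and COL28A1 from 6.3 to 8.9 and from 8.2 to 21 (adjusted p = 0.219). The peaks of COL25A1 and COL26A1, at most 12.4 and 10.7 in any library, did not pass the filter.

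**Figure D2:**
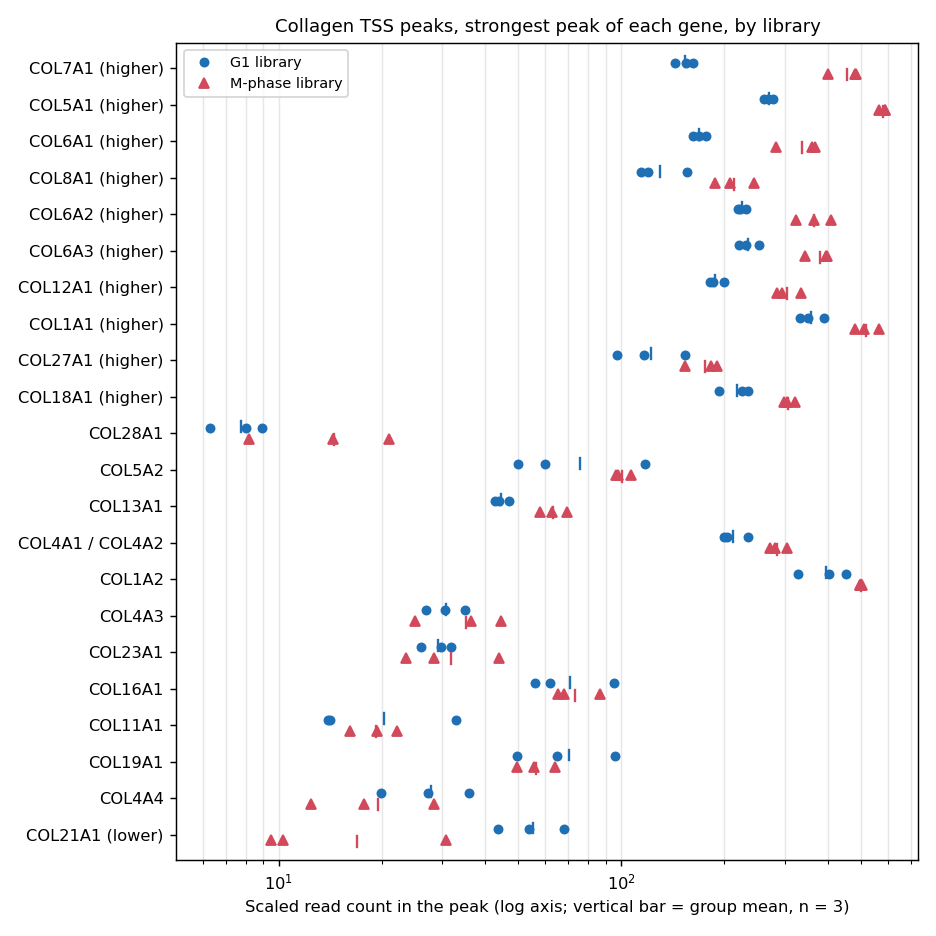
Scaled read count (log axis) of the strongest TSS peak of each collagen gene that passed the filter, 1 circle per G1 library and 1 triangle per M-phase library, with a vertical bar at each group mean (n = 3) and genes ordered by log2 change. The 10 called higher and COL21A1, called lower, show no overlap between phases, with COL7A1 at 143 to 162.1 in G1 and 401.7 to 484.6 in M-phase at the top.

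Intragenic peaks, mostly in introns (261 of 293), may mark enhancers or other regulatory sites of the gene around them or of a neighbour, and the table does not link them to a target. Of 150 tested intronic peaks, 8 were higher and 23 lower, and of 17 tested over coding exons, 1 was higher and 3 lower. By distance from the gene start, 2 of 19 tested peaks within 10 kb were lower, and 10 of 46 from 10 to 50 kb. From 50 to 100 kb 3 of 30 were lower, and 11 of 78 farther in. Those called higher in these bins were 2, 4, 2 and 3, and no test was run. Over all protein-coding genes, 15.1% of tested intragenic peaks were lower and 7.12% higher. These shares were not computed by feature or distance, so whether the counts are particular to collagen genes is not known. Among the strongest, with a mean count of at least 50, 6 of 21 were higher and 4 lower, against 21.5% and 21.9% of 3733 such peaks in all protein-coding genes.

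The falls described next are the largest among called intragenic peaks with a mean of at least 30 in 1 phase and no overlap between phases, so the lack of overlap at each was fixed by the choice. They lay in the FACIT genes COL14A1 and COL21A1, the basement membrane gene COL4A3 and the fibrillar gene COL3A1, while a larger fall at a lower count, in COL10A1, is given with the gene sums. COL14A1, a FACIT collagen of fibril surfaces, had a peak 1.07 kb from its start (chr8:121072989-121073192) with 29.8, 34.4 and 40 in G1 and 9.1, 9.1 and 2.9 in M-phase. The libraries nearest each other were 29.8 in G1 and 9.1 in M-phase, and the change was -1.53 ± 0.29 (SE; adjusted p = 1.48e-05, limma).

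COL21A1 fell at several places along its length. The peak 18.9 kb from its start (chr6:56239810-56240131), whose middle is shown above, had 42.7, 30.5 and 25 in G1 and 2.9, 4.1 and 15.9 in M-phase. The peak 292.8 kb from its start (chr6:55965880-55966312) had 42.7, 66.4 and 92 in G1 and 18.9, 19 and 22.1 in M-phase. The changes were -1.45 ± 0.30 (SE; adjusted p = 6.19e-05, limma) and -1.37 ± 0.26 (adjusted p = 1.91e-05). Of the 4 intragenic COL21A1 peaks tested, 3 were lower, none was higher, and the median change was -1.26.

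COL4A3 had a peak 63.6 kb into the gene (chr2:228092683-228093279) with 54.7, 53.9 and 52 in G1 and 24.7, 26.8 and 6.3 in M-phase. The G1 libraries were nearly equal and the M-phase libraries spread widely below them, with a change of -1.28 ± 0.28 (SE; adjusted p = 0.000154, limma). COL3A1, the type III collagen of vessels and skin, had 1 peak in all, in an intron 4.37 kb from its start (chr2:189843196-189843747), with 36.8, 35.9 and 25 in G1 and 10.3, 4.1 and 15.9 in M-phase. The third G1 library was the lowest of its phase and the third M-phase library the highest of its own, and the change was -1.21 ± 0.29 (adjusted p = 0.000707, limma). This COL3A1 peak lay within 500 bp of an annotated start, so with a start window of 500 bp it would not count as intragenic. These falls at COL14A1, COL21A1, COL4A3 and COL3A1 kept their calls under every alternative in which the peaks passed the filter.

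By the same limits on count and overlap, the largest intragenic rises were in COL12A1, COL4A2 and COL27A1. COL12A1 had a peak 3.91 kb from its start (chr6:75911676-75912465) with 42.7, 37.5 and 59 in G1 and 70.4, 79.1 and 115 in M-phase, a change of 0.81 ± 0.23 (SE; adjusted p = 0.00501, limma). It too lay within 500 bp of an annotated start and would not count as intragenic with that window. COL4A2 had a peak 14.3 kb from its start (chr13:110971975-110972907) with 83.5, 49.2 and 90 in G1 and 117, 141.7 and 125.1 in M-phase, a change of 0.76 ± 0.22 (adjusted p = 0.00456). COL27A1 had a peak 123.5 kb from its start (chr9:117041165-117041445) with 11.9, 22.7 and 21 in G1 and 27.6, 48.6 and 33.7 in M-phase, a change of 0.75 ± 0.28 (adjusted p = 0.0348).

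All of these rises lost their call with equal totals in peaks, at 0.50, 0.44 and 0.48. COL12A1 also lost it without M-phase library 3 (0.62), COL4A2 without G1 library 2 (0.52) or M-phase library 2 (0.69), and COL27A1 with TMM (0.65) and without G1 library 1 (0.55), M-phase library 2 (0.56) or M-phase library 3 (0.78). Outside those limits, and named after their values were seen, a neighbouring COL27A1 peak (chr9:117039742-117039979) had a larger change of 1.08 (adjusted p = 0.00215, limma), from 7.47 ± 2.25 to 24.6 ± 3.85 (mean ± SD, n = 3 each). Low peaks in COL4A1 and COL4A4 were also called higher, with changes of 0.79 and 0.77.

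**Figure D3:**
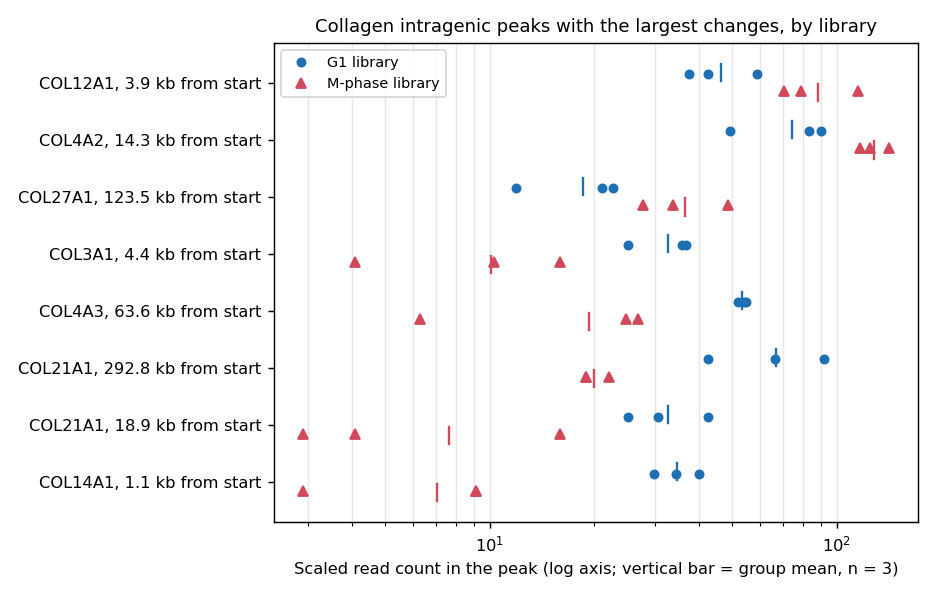
Scaled read count (log axis) of the collagen intragenic peaks with the largest called changes among those with a mean of at least 30 in 1 phase and no overlap between phases, 1 circle per G1 library and 1 triangle per M-phase library, with a bar at each group mean (n = 3). COL14A1 at the bottom ranges from 29.8 to 40 in G1 and from 2.9 to 9.1 in M-phase, where its libraries at 9.1 coincide.

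The strongest intragenic peak of the other well-known collagen genes was mostly not called. In COL18A1 it (chr21:46847193-46847970) had 76.6, 134.4 and 82 in G1 and 133.5, 153.7 and 224.2 in M-phase, overlapping slightly, with a change of 0.76 (adjusted p = 0.00323, limma). In COL6A2 it (chr21:47519520-47519713) had 20.9, 18 and 19 in G1 and 35.4, 35.8 and 38 in M-phase, with no overlap and a change of 0.70 (adjusted p = 0.0427, limma). The COL18A1 call was lost without M-phase library 3 (adjusted p = 0.101) and with loess scaling (0.0611) or equal totals (0.0732). The COL6A2 call was lost with TMM, with equal totals, with no filter and without any one of the 6 libraries, where the adjusted p ranged from 0.0559 to 0.108.

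For 7 more genes the strongest intragenic peak was not called. The values in COL4A2 (chr13:111048770-111050064) were 108.4, 118 and 157 in G1 and 172.2, 180.5 and 164.6 in M-phase, without overlap, with a change of 0.43 (adjusted p = 0.1, limma) that was called without the third G1 library (0.57, adjusted p = 0.014). In COL11A1 they ranged from 48 to 57.7 in G1 and from 27.2 to 53.4 in M-phase (-0.47, adjusted p = 0.166). COL1A2 changed by 0.27, COL4A1 by 0.16, COL5A1 by -0.16, COL5A2 by 0.06 and COL6A3 by 0.06, with adjusted p from 0.518 to 0.912. COL1A1 and COL6A1 had no intragenic peak.

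By count, COL21A1 had the most intragenic peaks called lower, 3 of 4 tested. COL4A3, COL4A6, COL14A1, COL15A1, COL22A1, COL24A1 and COL25A1 had 2 each, of 4, 2, 13, 5, 21, 7 and 5 tested. Over all protein-coding genes, 15.1% of tested intragenic peaks were lower, so a count of 2 means little where many were tested. COL18A1 had the most called higher, 3 of 10 tested. COL4A2 and COL27A1 followed with 2 of 12 and 2 of 5, against 7.12% over all protein-coding genes. Both COL4A6 peaks were tested and both were lower. COL18A1 and COL4A2 each also had 1 lower peak, so that a locus could hold peaks moving both ways. COL4A2 rose at 14.3 and 41.9 kb from its start and fell at 194.1 kb, near its far end. COL23A1, a transmembrane collagen with 31 intragenic peaks, had 19 tested and none called, with 1, lower, at an unadjusted p under 0.05.

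**Figure D4:**
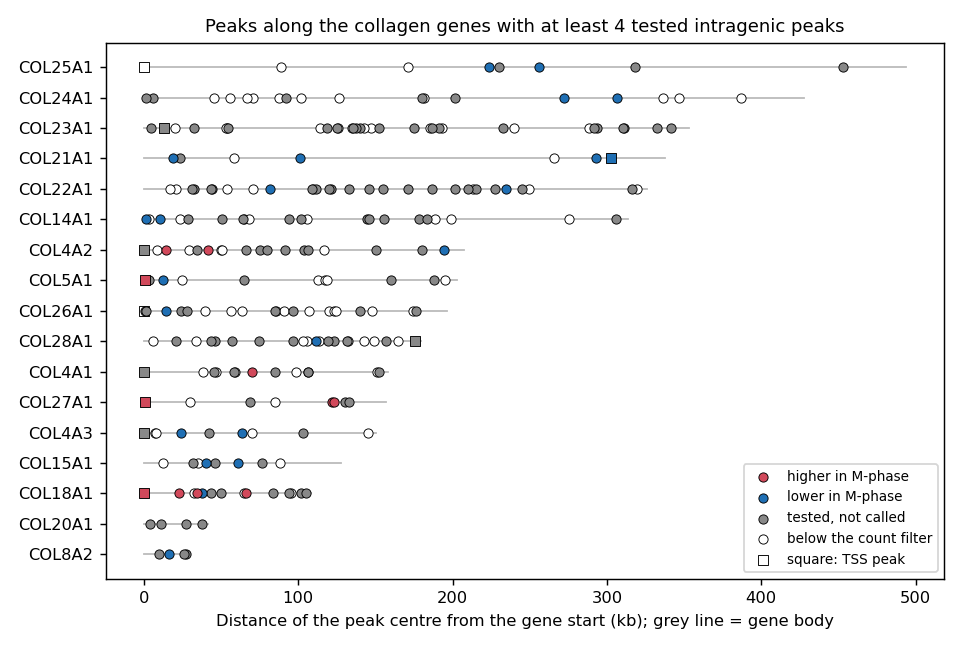
Position of TSS peaks (squares) and intragenic peaks (circles) along the 17 collagen genes with at least 4 tested intragenic peaks, as distance of the peak centre from the gene start in kb, with grey lines for gene bodies. Red marks peaks higher and blue peaks lower in M-phase, grey those tested and not called, white those below the filter. Lower peaks are spread along COL21A1, whereas COL4A2 holds higher peaks near its start and a lower one at 194.1 kb.

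The number of peaks at a gene varied with its length and chromosome. COL23A1 on chromosome 5, COL22A1 and COL14A1 on chromosome 8, and COL28A1 and COL26A1 on chromosome 7 had 31, 29, 21, 20 and 20 intragenic peaks, or 6.69 to 11.1 per 100 kb of gene body. COL21A1 and COL19A1 on chromosome 6, of similar length to COL22A1 and COL14A1, had 1.78 and 0.868 per 100 kb, and COL4A5 and COL4A6 on the X chromosome 0.388 and 0.704. Over whole chromosomes, the table held 77.2, 58.2 and 94.9 peaks per Mb on chromosomes 5, 8 and 7, 20.7 on chromosome 6 and 8.74 on the X chromosome. The part of DNA copy number in these differences was not tested.

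Summing the scaled counts over the intragenic peaks of each gene gave 1 value per gene and library, which was tested in the same way over 8789 protein-coding genes. Over all of them, 8.95% were higher and 13.9% lower in M-phase, and of 36 collagen genes tested 2 were higher and 9 lower. COL10A1, the collagen of hypertrophic cartilage, fell most. Its only peak, in an intron (chr6:116465875-116466069), had 13.9, 34.4 and 35 in G1 and 2.1, 2.9 and 2.9 in M-phase. Every M-phase library lay far below every G1 library, with a change of -1.69 ± 0.29 (SE; adjusted p = 3.44e-05, limma).

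The sums of COL3A1, COL4A6 and COL21A1 fell too, with log2 changes of -1.21, -1.19 and -1.19. COL4A6 had sums of 54.7, 42.9 and 68 in G1 and 14.9, 21.4 and 22.1 in M-phase, and COL21A1 had 122.2, 148.5 and 175 in G1 and 57.7, 53.2 and 70.2 in M-phase, without overlap in either. COL25A1, a transmembrane collagen of neurons, fell by 0.88 (adjusted p = 0.00164, limma), and COL8A2, a corneal collagen, fell by 0.83, from 207 ± 14.5 to 114 ± 24.3 (mean ± SD, n = 3 each; adjusted p = 0.000406, limma). COL19A1, COL4A3 and COL24A1 were also lower, with changes of -0.67, -0.66 and -0.49, of which COL19A1 and COL24A1 lost the call without the third G1 library, M-phase library 1 or M-phase library 2.

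COL12A1 and COL18A1 had higher sums in M-phase. COL12A1 had 62.6, 49.2 and 83 in G1 and 82, 91.8 and 139.1 in M-phase, which overlapped, with a change of 0.62 ± 0.21 (SE; adjusted p = 0.0341, limma). COL18A1 had 268.4, 438.4 and 322 in G1 and 408.7, 454 and 538.9 in M-phase, which overlapped too, with a change of 0.46 ± 0.15 (adjusted p = 0.0213, limma). Both calls were lost with TMM and equal totals and without G1 library 1, M-phase library 2 or M-phase library 3, and that of COL12A1 also without G1 library 2.

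The change at the start of a gene was then set against the change inside it, as the difference of the log2 sums within each library, which a library's overall scaling hardly touches. Over 6224 protein-coding genes, the TSS change was above the intragenic change in 38.9% and below it in 4.48%, with a median difference of 0.46. Of the 21 collagen genes tested, 4 were above and none below (at an unadjusted p under 0.05, also 4 and none), and the median difference was 0.29, with 16 of 21 positive. COL5A1 differed most, by 1.41 ± 0.20 (SE; adjusted p = 0.000301, limma). Its intragenic sum had 205.8, 242.2 and 269 in G1 and 196.1, 188.2 and 178.6 in M-phase, so that its start rose while none of its inner peaks was called higher and 1 was called lower, a peak 12.7 kb from the start (-0.72, adjusted p = 0.0226).

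COL8A1 differed by 1.26 ± 0.28 (SE; adjusted p = 0.00301, limma), COL7A1 by 0.91 ± 0.28 (adjusted p = 0.0172) and COL4A3 by 0.80 ± 0.24 (adjusted p = 0.0159). Each of COL8A1 and COL7A1 had 1 intragenic peak. The COL7A1 call was lost with loess scaling (0.22), a pseudocount of 1 (0.71) and without M-phase library 2 (0.68), and the COL4A3 call without M-phase library 1 (0.56). In COL21A1 the start and the inner peaks both fell, with changes of -1.43 and -1.19 and a difference of -0.24 ± 0.23 (adjusted p = 0.424, limma).

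**Figure D5:**
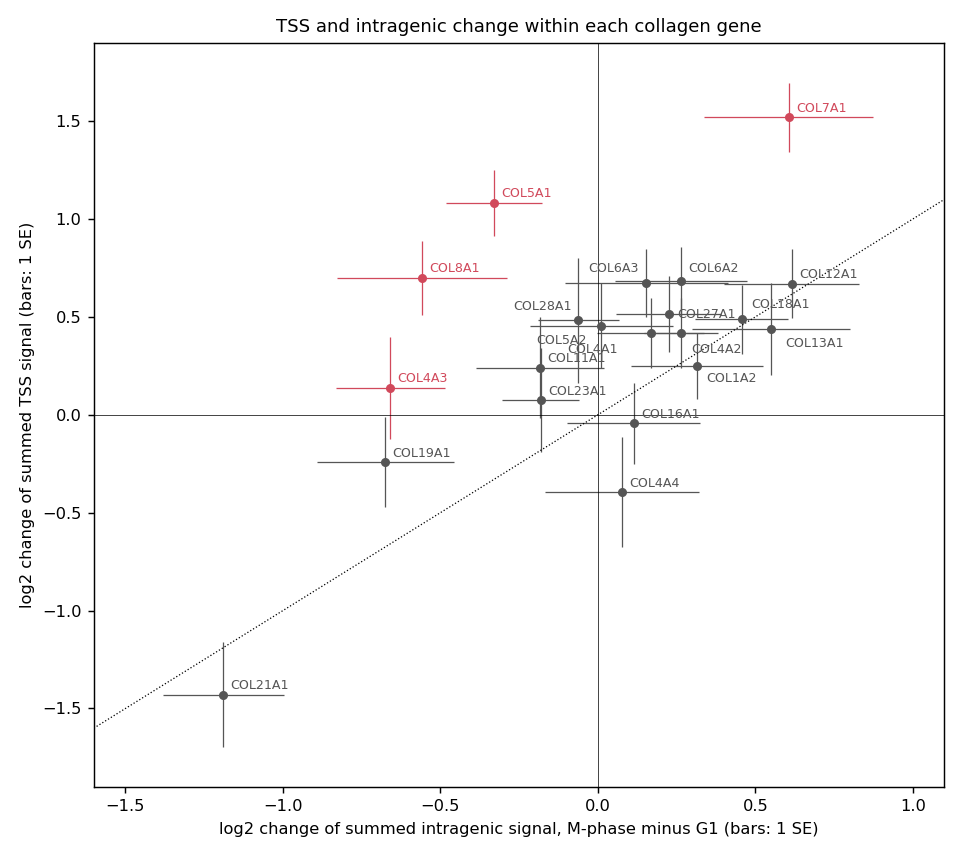
Log2 change from G1 to M-phase of the summed TSS signal (vertical) against that of the summed intragenic signal (horizontal) for the 21 collagen genes with both, with bars of 1 SE and a dotted line where they are equal. The genes whose difference was called (red) are COL5A1, COL8A1, COL7A1 and COL4A3, all above the line, and COL21A1 sits low on both axes.

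Genes that modify, fold, secrete, cut, cross-link, degrade or bind collagen were examined at their strongest TSS peak. Of 57 such genes, 45 had a TSS peak and 44 were tested, of which 23 were higher and 1 lower, with a median change of 0.48, against the 47.1% higher and 5.29% lower of all TSS peaks. By group, those called higher were 6 of 8 prolyl hydroxylation genes, 3 of 4 lysyl hydroxylation and glycosylation genes, 4 of 6 secretion genes, 3 of 6 chaperones, 2 of 8 propeptide-processing genes, 1 of 4 cross-linking genes, 2 of 3 degradation genes and 2 of 5 receptors, and the groups were not compared by a test. HSPA5, the chaperone BiP, had 177, 160.2 and 199 in G1 and 615.5, 633.3 and 650.1 in M-phase, a change of 1.78 ± 0.17 (SE; adjusted p = 1.29e-14, limma).

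P4HB and P4HA1, the subunits of prolyl 4-hydroxylase, rose by 1.27 (adjusted p = 1.74e-10, limma) and 1.24 (adjusted p = 2.78e-08). P4HB had 499.1, 364.1 and 558 in G1 and 1033.6, 1238.2 and 1141.8 in M-phase, with no overlap. SPARC, a secreted collagen-binding protein, was the only member called lower, from 252.5, 261.7 and 411 in G1 to 145.8, 191.6 and 260.3 in M-phase, which overlapped, with a change of -0.61 ± 0.19 (SE; adjusted p = 0.00963, limma). The collagen chaperone SERPINH1 had 179.9, 171.9 and 204 in G1 and 202.3, 213 and 173.2 in M-phase and was not called (0.08, adjusted p = 0.811, limma). P3H4 and FKBP10 share a promoter peak, so that it was counted for both. The processing genes were not followed under the alternatives, so how far their calls depend on the scaling is not known.

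Sequence composition of the collagen peaks was compared with that of their classes. Collagen TSS peaks had a median GC content of 63.3%, the same as all 13469 TSS peaks, and a median ratio of observed to expected CpG of 0.548, against 0.752. The 10 called higher had a ratio of 0.659 and the other 18 of 0.449. Among intragenic peaks, the 26 called lower had a median GC content of 45.9% and the 11 called higher 58%, whereas over all protein-coding genes these were 46.8% and 48.3%. No test was run on these values, and the part of base composition in the changes was not tested.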

How the data were processed

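ATAC-seq was analysed for 3 G1 and 3 M-phase libraries of T98G cells, and the input and chromatin-fraction samples were not used here. Per the study's methods, cutadapt removed adapters, Bowtie in QuasR mapped reads to hg19, SAMtools took out mitochondrial reads, MACS2 called broad peaks on replicates joined per phase, and the peaks of both phases were merged. Versions, any Tn5 shift and the joining of HiSeq and NextSeq runs are not given in the sources used here. The deposited signal values are counts per peak, brought by the authors to the size of the smallest library and rounded. A log2 ratio of the phases and its SD were also deposited and were not used. No count test was run, because a check of units did not accept the whole reads recovered for 4 of 6 columns. The reads in peaks given above are therefore estimates.

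Genes and starts came from GENCODE release 44 mapped to GRCh37, which is hg19. Peaks were kept where at least 3 libraries reached the equivalent of 10 in a library of median size and the total was at least 15. limma 3.58.1 (R 4.3.3) with a trended prior was fitted without covariates, and sums over the peaks of a gene were fitted in the same way. Only the fit over peaks was tried on simulated counts with known changes and a fixed spread. The other steps were not tried in this way.

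The collagen, subtype and processing lists were chosen with earlier results of these data known. Peaks were named by rule: the strongest TSS peak of each gene, the 6 largest called rises and falls without overlap between phases and with a mean of at least 30 in a phase, the strongest intragenic peak of 13 well-known genes, the genes with the most called intragenic peaks (5 per direction, with ties), genes called in the gene-level fits, and up to 3 called changes per direction of the processing list. Alternatives were TMM, trended loess (span 0.3) and equal-total scaling, a pseudocount of 1, other filters, other definitions of a TSS peak, a replicate block and leaving out each library. The sequence of 1 promoter window is not reported here.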

Additional observations from a re-analysis of the deposited data

How the results depend on the processing

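Scaling mattered most. The median change of all tested peaks was 0.02 as reported, -0.08 with TMM, -0.24 with equal totals and 0.02 with trended loess. With TMM, 6 of 169 collagen intragenic peaks were higher, against 5.58% of all intragenic peaks. Their median change was -0.24, against -0.15 for all, and 0 gene sums were higher and 14 lower. With loess, 3 TSS peaks were higher, the TSS and intragenic medians were 0.068 and -0.031, and 1 gene had a TSS change below its intragenic change. With equal totals, 5 TSS peaks were higher, against 32.3% of all TSS peaks. Of intragenic peaks, 1 was higher and 45 were lower, against 3.42% and 27.4% of all intragenic peaks. The TSS and intragenic medians were 0.14 and -0.4, against 0.12 and -0.3 for all peaks of each class. Gene sums were higher at 0 genes and lower at 18. Shares over all genes were not computed for gene-level fits under the alternatives, other start definitions or left-out libraries. With no filter the intragenic median was -0.001. Requiring 10 in every library left 1 of 22 tested TSS peaks and 10 of 82 tested intragenic peaks lower, against 5.07% and 14.5% of all. Counting only gene 5′ ends as starts left 0 TSS peaks lower. Causes were not tested. Leaving out each library in turn gave 5 to 13 TSS peaks higher (5 without M-phase library 2), 1 to 2 lower (1 without G1 library 3), 6 to 12 intragenic peaks higher (6 without G1 library 1, M-phase library 2 or M-phase library 3), 18 to 25 lower, and 0 to 3 gene sums higher (0 without G1 library 1, M-phase library 2 or M-phase library 3).

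Of 671 values for 54 named collagen results, 565 kept direction and call, 68 lost the call, 6 gained one and 32 turned in sign. Among the last, with TMM and equal totals, the strongest TSS peak of COL16A1 was at -0.06 and -0.26. That of COL11A1, at its inner start, was at -0.09 and -0.24, and that of COL23A1 at -0.04 and -0.21. The intragenic peaks of COL5A2 were at -0.05 and -0.23 and of COL6A3 at -0.02 and -0.13. With equal totals, COL4A3 TSS was at -0.14, COL1A2 TSS at -0.0026 and the COL4A1 intragenic peak at -0.1. With loess, COL1A2 was at -0.48, COL1A1 at -0.29, COL4A1/COL4A2 at -0.16 and COL18A1 at -0.11. Leaving out 1 library gave -0.07 to 0.27 for COL16A1 TSS, -0.15 to 0.3 for COL11A1 TSS, -0.01 to 0.32 for COL4A3 TSS and -0.13 to 0.23 for COL23A1 TSS, and -0.03 to 0.24 for COL5A2, -0.13 to 0.22 for COL6A3 and -0.41 to 0.08 for COL5A1 inside the gene. None of these peaks was called as reported except COL1A1 and COL18A1.

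Libraries with the same replicate number did not deviate together (correlations of 0.00594, -0.0101 and 0.0284 over peaks). This shows no pairing by number, but 3 libraries per phase cannot exclude a shared culture or day. With the replicate number as a block, 10 TSS peaks were higher and 2 lower, against 48.2% and 5.82% of all TSS peaks. Of intragenic peaks, 11 were higher and 29 lower, against 7.58% and 15.9% of all, and no named collagen peak or gene changed its call. The count tests planned with edgeR and DESeq2 were not run, since the recovery of whole reads did not pass a check of units. Peaks of low count limit what can be seen: 120 of 293 intragenic peaks were below the filter.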
